A study of Mus musculus with 2 samples.

Results

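The 9 genes described here act in inflammatory and programmed necrotic cell death: the caspases Casp1, Casp4, Casp8 and Casp12, the pore-forming protein Gsdmd, the cytokine Il18, the kinase Ripk3, its substrate Mlkl and the nucleic acid sensor Zbp1. They were chosen by symbol from the 32285 features of each deposited count matrix, and all 9 were present. Uterine cells from mice on gestational day 3.5 had been captured singly in droplets and counted as unique molecular identifiers (UMIs, 1 per captured RNA molecule). The control library carried floxed Mig-6 alleles and no Cre (Mig-6f/f). The other carried the same floxed alleles with Cre at the progesterone receptor gene (Pgrcre/+Mig-6f/f), which directs deletion to cells that express Pgr, so an effect of the Cre allele itself and of the loss of Mig-6 cannot be told apart. Each genotype was 1 library, so no difference below has a replicate check. Every interval is a 95% interval of counting error, and a difference between the libraries may be a difference between the animals used.

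Pyroptosis is a lytic cell death in which inflammatory caspases cut gasdermin D, the product of Gsdmd, and its fragment opens pores in the plasma membrane. Caspase-1 is recruited by inflammasome sensors and also matures interleukin-18, while mouse Casp4 encodes caspase-11, which binds bacterial lipopolysaccharide in the cytosol. Necroptosis is a separate lytic death in which Ripk3 phosphorylates Mlkl, Zbp1 is one of the sensors that activate Ripk3, and caspase-8 restrains the pathway. Casp12 belongs to the inflammatory caspase family and its protein is associated with the endoplasmic reticulum.

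The control library held 4627 barcodes and 44871170 UMIs, the library labelled knockout 3118 barcodes and 23317904 UMIs, and 3 barcode sequences occurred in both. After filtering, 4462 and 2951 barcodes were kept. A barcode was called epithelial when Epcam, Krt8, Krt18 and Cldn7 together made up 10 or more of every 10000 UMIs, stromal when Dcn, Col1a2 and Col3a1 did, and other when neither sum did; barcodes that passed both sums (47 and 31) were set aside. This gave 738 control and 1457 knockout-labelled epithelial barcodes (median depth 11793 and 9643 UMIs), 3333 and 1055 stromal barcodes (8943 and 3642 UMIs) and 344 and 408 other barcodes (5832 and 2050 UMIs). Markers outside the rule separated epithelial from stromal barcodes. Cdh1, Krt19, Krt7, Wfdc2, Cldn4 and Msx1 summed to 6230 and 8510 UMIs per 1000000 UMIs of the class (CPM) in epithelial barcodes. In stromal barcodes they summed to 13.7 and 57.4 CPM. Col1a1, Lum, Pdgfra, Hoxa11, Hand2 and Vim summed to 1970 and 2030 CPM in stromal and 24.9 and 13.8 CPM in epithelial barcodes. These stromal markers read 1090 and 969 CPM in other barcodes, so they set stroma apart from those less clearly. Errfi1, the gene of Mig-6, differed in opposite directions in the 2 tissues. Epithelial Errfi1 fell from 571 CPM (control) to 512 CPM (labelled knockout), with a ratio of 0.896 (0.868 to 0.926). Stromal Errfi1 rose from 194 to 728 CPM, by 3.74-fold (3.58 to 3.91). These counts cannot decide whether the label holds. The labels do not say which part of the gene is deleted, and 3' tags outside the deleted part check nothing, so the second library is called "labelled knockout" throughout.

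Casp1, Casp4 and Casp12 are neighbouring genes on mouse chromosome 9, and the sequences before their starts are shown because their counts, given below, went in different directions across the tissue. Each line is the 250 bases before the transcription start in RefSeq's GRCm38.p6 annotation, 5' to 3' on the gene's strand. Capitals mark matches to any of 4 motifs searched on both strands: the interferon-stimulated response element as GAAA, any 2 bases and GAAA, the gamma-activated sequence as TTCNNNGAA, AP-1 as TGANTCA, and the NF-kB motif.
Casp1, chr9:5298267-5298516, plus strand: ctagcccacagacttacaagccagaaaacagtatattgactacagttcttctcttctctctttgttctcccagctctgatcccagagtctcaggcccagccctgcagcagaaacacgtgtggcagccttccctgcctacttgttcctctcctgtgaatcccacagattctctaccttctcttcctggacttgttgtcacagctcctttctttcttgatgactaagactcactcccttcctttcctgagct
Casp4, chr9:5308599-5308848, plus strand: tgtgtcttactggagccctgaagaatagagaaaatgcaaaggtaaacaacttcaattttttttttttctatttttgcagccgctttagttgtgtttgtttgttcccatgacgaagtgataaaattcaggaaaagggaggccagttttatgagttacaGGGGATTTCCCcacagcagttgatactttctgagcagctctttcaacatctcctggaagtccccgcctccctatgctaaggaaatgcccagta
Casp12, chr9:5345226-5345475, plus strand: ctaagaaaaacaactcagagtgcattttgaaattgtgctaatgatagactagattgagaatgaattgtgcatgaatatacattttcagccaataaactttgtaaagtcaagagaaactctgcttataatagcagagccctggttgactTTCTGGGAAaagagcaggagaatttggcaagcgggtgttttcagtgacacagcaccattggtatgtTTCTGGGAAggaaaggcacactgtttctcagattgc
The Casp4 window held 2 overlapping matches to the NF-kB motif, beginning 93 and 92 bases before the start; 3.90% of the 32851 windows of 250 bases in the same table held a match. The Casp12 window held 2 matches to the gamma-activated sequence, both TTCTGGGAA, beginning 102 and 36 bases before the start, where 7.02% of windows held a match. Neither the Casp1 window nor that of Il18, also on chromosome 9, held a match to any of the 4; the interferon element was in 2.98% and AP-1 in 6.75% of all windows. A match describes letters only. Matches were listed for Casp1, Casp4, Casp12 and Il18 only. A promoter entry existed for 7 of the 9 genes, and Gsdmd and Zbp1 had none.

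Across the classes the 9 genes did not move together. Casp4 was higher in the library labelled knockout in all 3 classes, most in stroma (9.58-fold). Il18 was lower in epithelium (7.69-fold) and in stroma (1.92-fold), and in other barcodes by an amount within counting error, and Casp1 was lower in epithelium by 2.0-fold. The necroptosis genes Ripk3 and Mlkl were higher in epithelium, 2.53-fold and 1.75-fold, and the ratio of Casp8 was between 0.966 and 1.15 in every class. A gene was counted as past 2-fold when the ratio of its CPM values was 2 or more, or 0.5 or less, with 20 or more UMIs over both libraries in the class. In epithelium all 9 reached that minimum: 1 was past 2-fold higher (Ripk3), where 4.94% of 13562 genes were, and 1 lower (Il18), where 15.6% of genes were. In stroma 8 reached it: 2 were higher (Casp4 and Zbp1), against 5.61% of 14602 genes, and 0 were lower, against 11.5%. Among other barcodes 8 reached it: 1 was higher (Casp4), against 4.12% of 10548 genes, and 2 were lower (Il18 and Ripk3), against 6.06%. The median log2 ratio of the genes that reached the minimum was 0.08 in epithelium, 0.08 in stroma and -0.36 in other barcodes, beside -0.18, -0.05 and 0.00 over all genes tested. Counts this small over 9 chosen genes describe the list and do not set it apart.

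**Figure D1:**
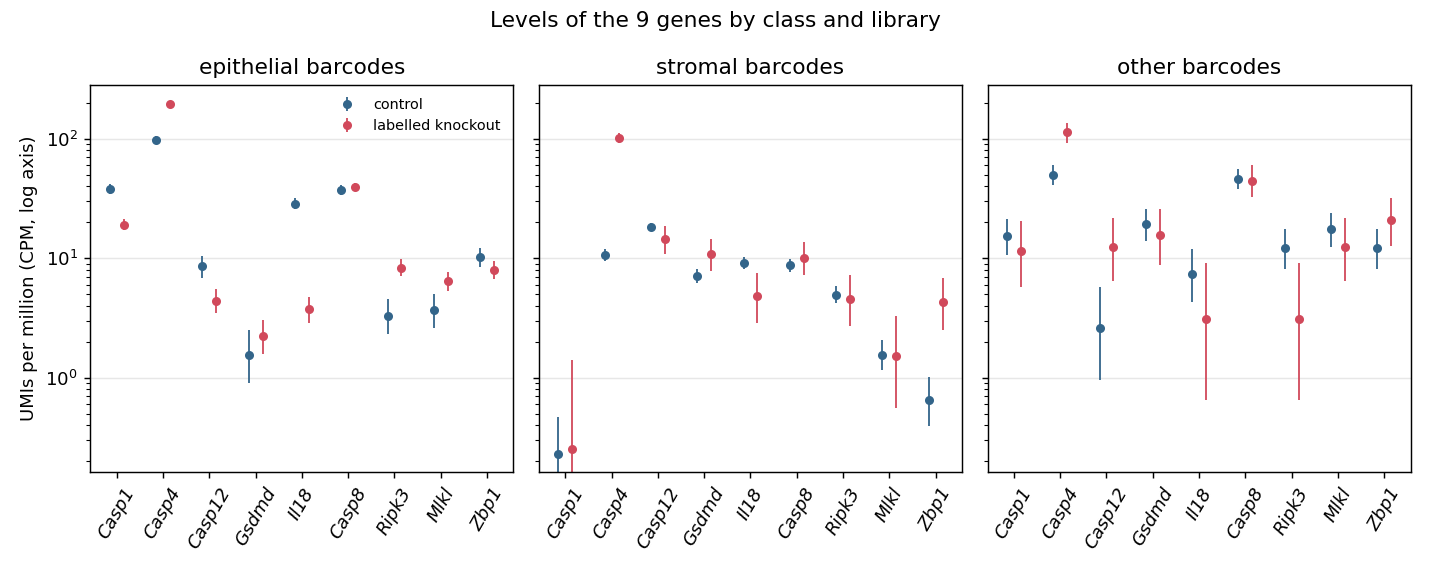
Level of each of the 9 genes in CPM (log axis) in epithelial, stromal and other barcodes of the control (blue) and of the library labelled knockout (red), 1 library each. Points are class totals and bars are 95% Poisson intervals of counting error. In stroma Casp4 goes from 10.7 CPM (control) to 102 CPM, and in epithelium Il18 goes from 28.7 to 3.73 CPM.

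Casp4 in stroma was the largest difference among the 9 genes. Control stroma held 329 Casp4 UMIs, 10.7 CPM (9.55 to 11.9), and the stroma of the library labelled knockout 406 UMIs from fewer barcodes, 102 CPM (92.5 to 113). The intervals were far apart and the ratio was 9.58 (8.26 to 11.1). In epithelium the gene was already well counted in the control, at 98.6 CPM (92.8 to 105), and reached 195 CPM (188 to 201) in the library labelled knockout. That is 1.97-fold (1.84 to 2.12), which falls just short of 2-fold. Within the control, epithelium therefore stood 9.24-fold (8.16 to 10.5) above stroma, and within the library labelled knockout 1.90-fold (1.72 to 2.12). Whether the 2 tissues' ratios differ between animals was not tested.

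More barcodes held Casp4, and they held more of it. A Casp4 UMI was found in 6.99% of control stromal barcodes (233 of 3333) and in 21.6% (228 of 1055) of those of the library labelled knockout, although the latter were the shallower. With every barcode thinned to 2000 UMIs the shares were 1.88% (1.44 to 2.40) of 3303 barcodes and 13.7% (11.6 to 16.1) of 946, with 30 and 109 shallower barcodes left out. For comparison, 2.83% of 106 control and 3.17% of 63 knockout-labelled lymphoid barcodes held Casp4 at the same depth, where the class medians before thinning were 6730 and 1881 UMIs. In epithelium the thinned shares were 17.2% (14.5 to 20.2) and 26.4% (24.1 to 28.8). Barcodes with 5 or more Casp4 UMIs numbered 63 of 738 in control epithelium and 267 of 1457 in the library labelled knockout, with a highest count of 16 and 30.

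RNA shared through the droplet fluid would carry epithelial transcripts into stromal barcodes in the proportions they have in epithelium. The 6 epithelial markers outside the rule stood in stroma at 0.0611% to 0.314% of their epithelial level in the control and at 0.315% to 1.24% in the library labelled knockout. Casp4 in stroma stood at 10.8% and 52.5% of its epithelial level, and Zbp1 at 6.38% and 53.4%. Casp1, counted with 7 and 1 UMIs in stroma, stood at 0.597% and 1.32%. Both values lie above the range of the epithelial markers in their library, and the counting intervals of both reach into it. Stromal counts of Casp1 therefore cannot be told apart from background, and low expression in stroma was not tested. Those of Casp4 are above the range of the epithelial markers in both libraries.

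**Figure D2:**
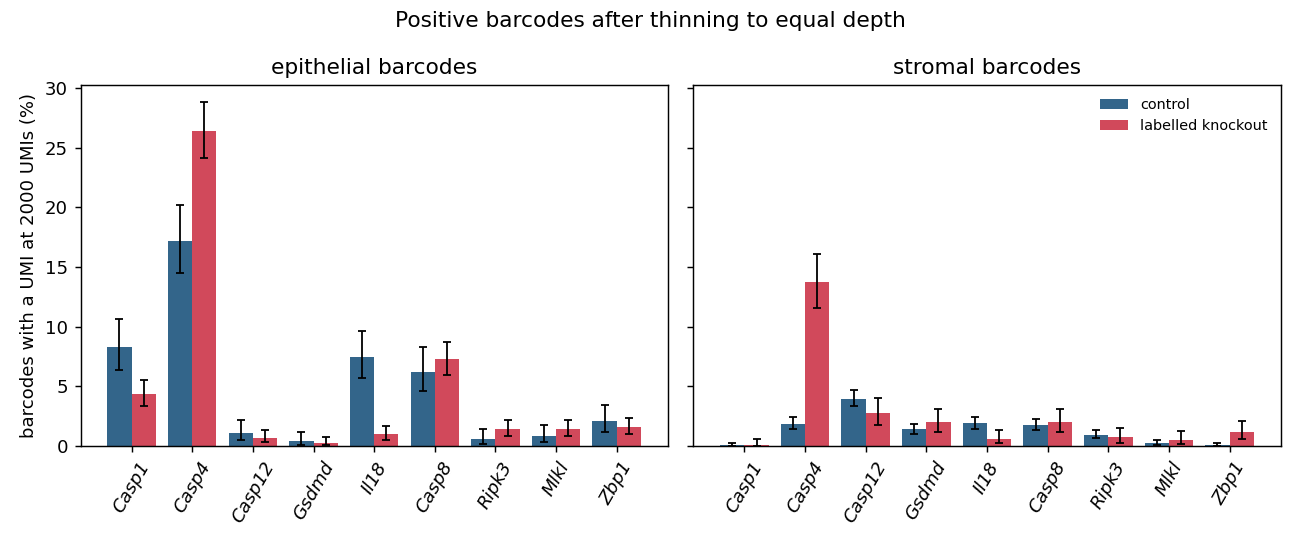
Percent of barcodes with a UMI of each gene after every barcode was thinned to 2000 UMIs, in epithelial and stromal barcodes of the control (blue) and of the library labelled knockout (red). Bars start at 0 and whiskers are 95% exact binomial intervals. Casp4 in stroma goes from 1.88% to 13.7% and Il18 in epithelium from 7.49% to 0.996%.

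Casp4 varied within each tissue with genes of inflammation. Barcodes were split by the summed level of 3 inflammatory genes, a split chosen after values of these data were seen: Ccl2, Cxcl1 and Ifi27l2a in stroma, and Il1a, Icam1 and Cxcl2 in epithelium. In control stroma Casp4 stood at 6.46 CPM where none of the 3 genes was counted (2225 barcodes), at 13.7 CPM above 0 to 5 per 10000 UMIs (937 barcodes) and at 44.8 CPM above 5 to 20 (164 barcodes); the highest bin, 100 CPM, held only 7 barcodes. In the library labelled knockout the same bins read 36.5 CPM (279 barcodes), 70.1 (260), 121 (414) and 240 CPM (102 barcodes). The bins were not matched for depth: in the lowest, median depth was 8700 UMIs in the control and 3057 in the library labelled knockout. A shallower barcode can miss genes that a deeper one would count, so the same bin need not hold equal levels. Bin by bin, the library labelled knockout was higher by 5.64-fold (3.68 to 8.41), 5.11-fold (3.79 to 6.83), 2.70-fold (2.03 to 3.64) and, on the 7 control barcodes, 2.39-fold (1.06 to 6.67). Each of these ratios is below the 9.58 of the whole tissue, whose barcodes lie in different bins in the 2 libraries.

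Epithelium showed the same order. Control Casp4 read 74.0 CPM with none of the 3 genes counted, then 134 and 172 CPM, and 197 CPM in a bin of 5 barcodes. The library labelled knockout read 90.5, 197, 276 and 389 CPM. Depth was again unmatched, with medians of 11340 (control) and 6718 UMIs (labelled knockout) in the lowest bin. The ratio was 1.22 (1.08 to 1.39) in the lowest bin, 1.48 (1.33 to 1.65) and 1.60 (1.32 to 1.97) in the next bins, and 1.97 (1.14 to 3.74) in the bin with 5 control barcodes. An interferon gate was set at 5 or more UMIs per 10000 of Isg15, Ifit1, Ifit3, Irf7, Rsad2 and Bst2 together. Stromal Casp4 did not differ beyond counting error between its sides. In the library labelled knockout, barcodes past the gate held 95.4 CPM and the rest 105 CPM, a ratio of 0.910 (0.722 to 1.14). Control sides read 13.3 and 10.6 CPM, a ratio of 1.25 (0.338 to 3.23) on 4 UMIs past the gate. The genes of the stromal split above, Ifi27l2a among them, were not taken singly.

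**Figure D3:**
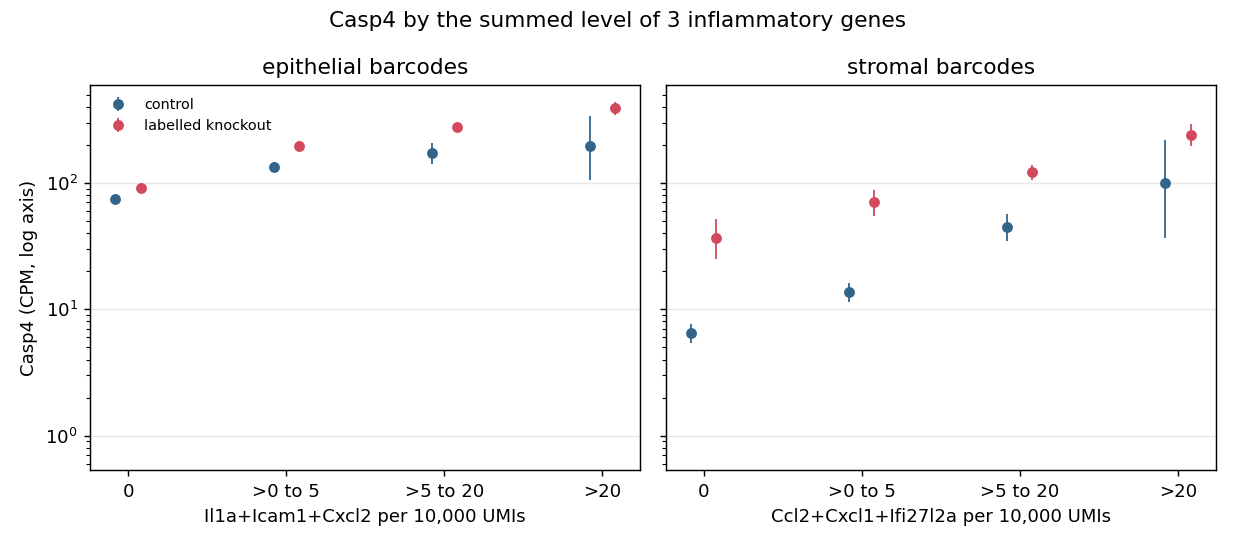
Casp4 in CPM (log axis) by the summed level of Il1a, Icam1 and Cxcl2 in epithelial barcodes (left) and of Ccl2, Cxcl1 and Ifi27l2a in stromal barcodes (right), in UMIs per 10000, for the control (blue) and the library labelled knockout (red). Bars are 95% Poisson intervals. In stroma the control goes from 6.46 to 44.8 CPM over its 3 well-filled bins and the library labelled knockout from 36.5 to 240 CPM over 4; the highest control bins hold 7 stromal and 5 epithelial barcodes.

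Within epithelium, gland barcodes were a low point for Casp4. Epithelial barcodes with 10 or more UMIs per 10000 of Foxa2, Prss28, Prss29 and Cxcl15 numbered 102 in the control and 66 in the library labelled knockout, with 2 and 8 barcodes within 20% of that limit. These genes summed to 1940 CPM in control epithelium and 212 CPM in that of the library labelled knockout. The same limit may therefore not select like cells in both libraries. That holds for every gland contrast here and was not tested. Control Casp4 was 12.7 CPM in gland barcodes and 111 CPM in the remaining epithelium, and the library labelled knockout read 37.5 and 199 CPM. Endothelial barcodes were high in both libraries, at 111 CPM (82.3 to 145) and 184 CPM (118 to 274). Over all other barcodes Casp4 stood at 49.7 and 113 CPM, 2.28-fold higher (1.74 to 2.99) in the library labelled knockout. Barcodes with no gated identity read 36.9 and 196 CPM, 5.32-fold higher (3.20 to 9.22). They held the stromal markers outside the rule at 1090 and 1070 CPM and the epithelial ones at 251 and 465 CPM. The leukocyte markers Ptprc, Laptm5, Coro1a and Tyrobp summed to 502 and 1180 CPM in them, so they are not read as a single cell type. Over the myeloid, lymphoid, endothelial and mural barcodes together the Casp4 ratio was 1.18. Taken singly these read 0.986 (0.293 to 2.65), 2.68 (0.801 to 8.94), 1.67 (0.980 to 2.76) and 0.276 (0.0302 to 1.22), all with intervals that include 1, and their mix differed between the libraries.

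Casp1, the inflammasome caspase, was an epithelial gene in this tissue with a further count in leukocytes. Epithelium held 88.7% of the control's 468 Casp1 UMIs and 94.0% of the 364 in the library labelled knockout. Control epithelium read 38.0 CPM (34.4 to 41.9) and that of the library labelled knockout 19.0 CPM (17.1 to 21.1). The library labelled knockout was lower by 2.0-fold (1.73 to 2.31), with the unrounded ratio just above the limit of 0.5, and so the opposite way to its neighbour Casp4. The share of positive barcodes was 37.1% and 19.6%, and 8.32% (6.41 to 10.6) and 4.34% (3.34 to 5.54) after thinning. Stroma, whose few Casp1 counts cannot be told apart from background, gave thinned shares of 0.0606% and 0.106%.

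Casp1 in control epithelium was lower in gland barcodes, at 15.7 CPM, than in the rest, at 41.1 CPM, and the same sides read 13.8 and 19.2 CPM in the library labelled knockout. Without gland barcodes the ratio between libraries was 0.466, past 2-fold. Interferon-high epithelial barcodes of the control, 119 of them with 109 barcodes near that limit, held 1.55-fold (1.20 to 1.97) more Casp1 and 1.45-fold (1.25 to 1.69) more Casp4 than the rest. In the library labelled knockout both intervals of that contrast included 1, on 59 barcodes with 45 near that limit. Myeloid barcodes read 57.4 CPM (33.5 to 92.0) and 46.0 CPM (9.49 to 134), and lymphoid barcodes 16.1 and 16.5 CPM. Myeloid levels overlapped those of control epithelium. No Casp1 UMI was counted in mural barcodes, 0 of 38 and 0 of 55, which allows shares of up to 7.89% and 5.45%.

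Casp12 was higher in stroma than in epithelium in both libraries. Control stroma read 18.2 CPM (16.7 to 19.8) and that of the library labelled knockout 14.3 CPM (10.9 to 18.6), a ratio of 0.787 (0.589 to 1.04) whose interval includes 1. Control epithelium read 8.52 CPM and that of the library labelled knockout 4.39 CPM, lower by 1.94-fold (1.42 to 2.65). Without gland barcodes this ratio was 0.465, past 2-fold. Stroma stood above epithelium 2.14-fold in the control and 3.27-fold in the library labelled knockout. Stroma held 84.4% of the control's 666 Casp12 UMIs, in 3333 barcodes, and 38.0% of the 150 in the library labelled knockout, in 1055 barcodes. Unthinned, 14.8% of control and 4.93% of knockout-labelled stromal barcodes held a UMI. At equal depth the shares were 3.97% (3.33 to 4.69) and 2.75% (1.80 to 4.0), with overlapping intervals. In other barcodes only 6 and 12 UMIs were counted, 2.62 and 12.5 CPM, under the minimum. Of the 12, 5 were in mural and 4 in endothelial barcodes, against 1 and 0 in the control, and no myeloid barcode of either library held one (0 of 52 and 0 of 27).

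Il18, whose product is a cytokine matured by caspase-1, had the largest reduction among the 9 genes in epithelium. Control epithelium held 313 UMIs, 28.7 CPM (25.6 to 32.0), and that of the library labelled knockout 67 UMIs, 3.73 CPM (2.89 to 4.73), although it had more barcodes. The library labelled knockout was lower by 7.69-fold (5.89 to 10.2). Positive barcodes made up 30.8% and 4.05%, and 7.49% (5.68 to 9.66) and 0.996% (0.546 to 1.67) at equal depth. Stroma was lower too, at 9.18 CPM (8.14 to 10.3) against 4.78 CPM (2.88 to 7.47), by 1.92-fold (1.21 to 3.23). Control epithelium stood 3.12-fold (2.65 to 3.68) above control stroma. In the library labelled knockout the 2 tissues did not separate, with a ratio of 0.779 (0.462 to 1.37).

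With the gland limit used here, Il18 was resolved as lower outside gland barcodes only. Control gland barcodes read 23.2 CPM and those of the library labelled knockout 9.87 CPM (3.20 to 23.0, 5 UMIs), a ratio of 0.426 (0.129 to 1.11) that includes 1. The remaining epithelium read 29.4 and 3.55 CPM, a ratio of 0.121 (0.0900 to 0.159). It was lower also in 3 of the 4 bins of Il1a, Icam1 and Cxcl2: the lowest bin read 33.6 and 3.89 CPM, the next 21.5 and 3.77 CPM, and the one above 12.5 and 3.71 CPM. The highest bin, with 5 control barcodes and 2 UMIs in each library, read 30.4 and 2.40 CPM, with a ratio interval of 0.00573 to 1.09. The control level in the lowest bin stood clear of the next, with overlapping intervals among the other bins, while the level in the library labelled knockout was flat within its counting error. Among other barcodes, myeloid barcodes held 9 UMIs in the control, 30.4 CPM (13.9 to 57.7), and 1 UMI in the library labelled knockout. Lymphoid, endothelial and mural barcodes held none in either library, where the largest groups, 110 and 131 lymphoid barcodes, allow shares of up to 2.73% and 2.29%. The class total of other barcodes, 7.42 and 3.12 CPM, rested on 17 and 3 UMIs, and the interval of its ratio, 0.420 (0.0789 to 1.45), includes 1. Il18 overlaps Bco2 and Tex12 in the annotation, and those genes were counted with 6 and 1 UMIs in control epithelium and 9 and 4 in that of the library labelled knockout.

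Gsdmd, the substrate of both inflammatory caspases, was sparse in epithelium. Control epithelium held 17 UMIs, 1.56 CPM (0.907 to 2.49), and that of the library labelled knockout 40 UMIs, 2.22 CPM (1.59 to 3.03). The ratio of 1.43 (0.792 to 2.69) has an interval that includes 1. Stroma read 7.13 CPM (6.22 to 8.14) and 10.8 CPM (7.83 to 14.6), 1.52-fold higher (1.07 to 2.11) in the library labelled knockout. At equal depth 1.39% (1.02 to 1.85) and 2.01% (1.21 to 3.12) of stromal barcodes were positive, which overlap. Stroma stood above epithelium by 4.58-fold in the control and by 4.87-fold in the library labelled knockout. Higher still in the control were myeloid barcodes at 37.2 CPM (18.6 to 66.5), endothelial barcodes at 26.0 CPM (13.4 to 45.4) and lymphoid barcodes at 22.2 CPM (13.2 to 35.1), whose intervals overlap one another. The same classes of the library labelled knockout held 0 UMIs (27 myeloid barcodes, allowing up to 46.0 CPM), 1 UMI (7.67 CPM, 0.194 to 42.7) and 8 UMIs (26.4 CPM, 11.4 to 52.1), too few to be ordered against its stroma. No Gsdmd UMI was counted in gland barcodes (0 of 102 and 0 of 66, allowing up to 2.94% and 4.55%). Epithelium, which held most UMIs of Casp1 and Casp4 in both libraries, was thus the class with the lowest Gsdmd level of the 3 in both libraries.

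**Figure D4:**
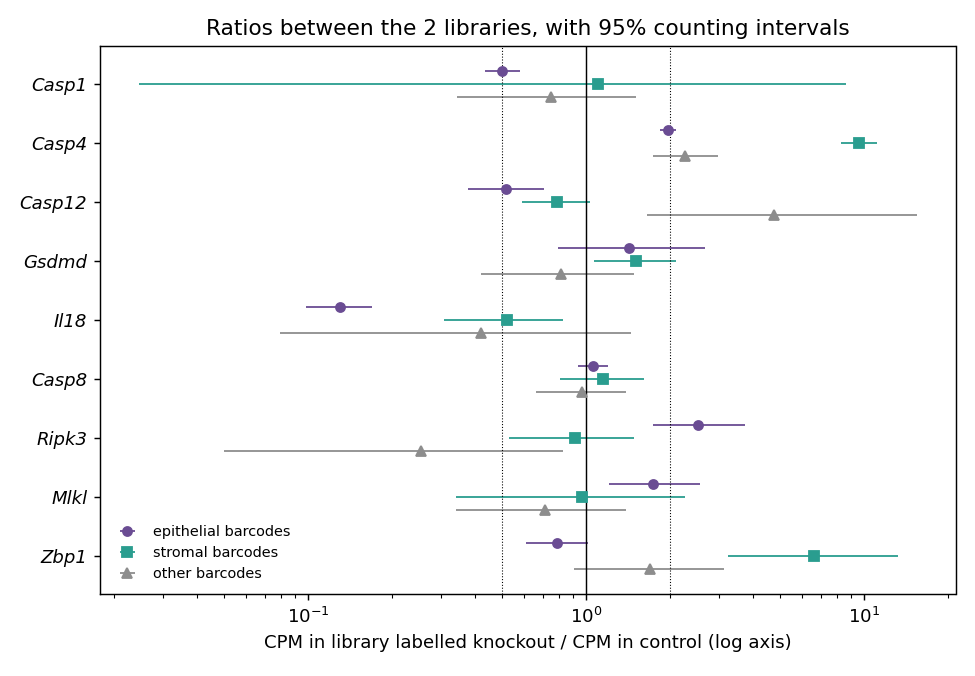
Ratio of CPM in the library labelled knockout to CPM in the control (log axis) for each of the 9 genes in epithelial (circles), stromal (squares) and other barcodes (triangles), with 95% intervals of counting error. The solid line marks equal levels and the dotted lines 2-fold. Casp4 in stroma lies at 9.58 and Il18 in epithelium at 0.130, while all 3 intervals of Casp8 include 1.

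Casp8, the initiator caspase that restrains necroptosis, differed least. Epithelium read 37.2 CPM (33.7 to 41.0) and 39.3 CPM (36.5 to 42.3), with a ratio of 1.06 (0.934 to 1.20). Stroma read 8.72 and 10.1 CPM, a ratio of 1.15 (0.806 to 1.61), and other barcodes 46.3 and 44.7 CPM, a ratio of 0.966 (0.662 to 1.39). All 3 intervals include 1, and the narrowest is that of epithelium. Epithelium stood 4.26-fold (3.65 to 4.99) above stroma in the control and 3.91-fold (2.84 to 5.51) in the library labelled knockout. Endothelial barcodes read 67.2 and 69.0 CPM, lymphoid barcodes 53.1 and 69.4 CPM and myeloid barcodes 64.2 and 46.0 CPM, with overlapping intervals throughout. In the library labelled knockout gland barcodes read 17.8 CPM, lower than the 39.9 CPM of the remaining epithelium at a ratio of 0.445 (0.202 to 0.849) on 9 UMIs, while the control sides read 32.1 and 37.9 CPM.

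Ripk3, the necroptosis kinase, was higher in the epithelium of the library labelled knockout. Control epithelium held 36 UMIs, 3.30 CPM (2.31 to 4.57), and that of the library labelled knockout 150 UMIs, 8.34 CPM (7.06 to 9.79). The intervals did not overlap and the ratio was 2.53 (1.75 to 3.75). At equal depth 0.555% (0.151 to 1.41) and 1.42% (0.872 to 2.19) of barcodes were positive, which overlap. Stroma read 4.96 and 4.53 CPM, a ratio of 0.913 (0.527 to 1.49). Epithelium stood below stroma in the control, at 0.665 of its level (0.449 to 0.961), and above it in the library labelled knockout, at 1.84 (1.13 to 3.19).

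Among other barcodes Ripk3 went the opposite way to epithelium, on few counts. Control barcodes held 28 UMIs, 12.2 CPM, and those of the library labelled knockout 3 UMIs, 3.12 CPM, a ratio of 0.255 (0.0497 to 0.826). Of the 28, 17 were in lymphoid barcodes, 21.0 CPM (12.2 to 33.6). The 131 lymphoid barcodes of the library labelled knockout held none, which allows up to 9.92 CPM and a share of up to 2.29%. These barcodes had a median of 1881 UMIs against 6730 in the control, and at equal depth the shares were 4.72% (1.55 to 10.7) of 106 and 0 of 63 barcodes (allowing up to 4.76%), which overlap. Ripk3 overlaps the predicted gene Gm32092 in the annotation.

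Mlkl, the executioner that Ripk3 phosphorylates, was higher in the same epithelium by less. Control epithelium read 3.66 CPM (2.62 to 4.99) on 40 UMIs and that of the library labelled knockout 6.40 CPM (5.28 to 7.68) on 115, 1.75-fold higher (1.21 to 2.57). At equal depth the shares of positive barcodes were 0.832% (0.306 to 1.80) and 1.42% (0.872 to 2.19). Stroma read 1.56 and 1.51 CPM on 48 and 6 UMIs, a ratio of 0.970 (0.339 to 2.27). Endothelial barcodes were the highest of the gated classes in both libraries, at 56.3 CPM (36.8 to 82.5) and 61.3 CPM (26.5 to 121), and in the control they stood clear of lymphoid barcodes at 11.1 CPM (5.08 to 21.1). Other barcodes in sum read 17.5 and 12.5 CPM, a ratio of 0.715 (0.341 to 1.39).

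Zbp1, a sensor of Z-form nucleic acids, had its highest level in myeloid barcodes, 54.1 CPM (30.9 to 87.8) and 123 CPM (53.0 to 242), on 16 and 8 UMIs with overlapping intervals. Epithelium read 10.2 CPM (8.36 to 12.2) and 8.01 CPM (6.75 to 9.43), a ratio of 0.788 (0.611 to 1.02). Stroma read 0.649 CPM (0.396 to 1.00) and 4.28 CPM (2.49 to 6.85), 6.60-fold higher (3.25 to 13.3) in the library labelled knockout on 20 and 17 UMIs. At equal depth 0.0606% (0.00733 to 0.219) and 1.16% (0.582 to 2.07) of stromal barcodes were positive. The ratio then was 19.2 on 13 UMIs, so its size is poorly fixed. The leukocyte markers Ptprc, Laptm5, Coro1a and Tyrobp summed to 5.87 and 14.9 CPM in stroma against 1620 and 1790 CPM in other barcodes. Leaving out every stromal barcode with a UMI of these markers was 1 of the 12 alternatives given below. Over these alternatives the stromal Zbp1 ratio ranged from 5.14 to 19.2. The part of leukocyte RNA in the stromal Zbp1 counts was not tested otherwise.

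Zbp1 in epithelium was higher where interferon genes were high. Interferon-high epithelial barcodes held 20.5 CPM against 8.44 CPM in the rest of the control, 2.43-fold more (1.56 to 3.71). In the library labelled knockout they held 25.6 against 7.62 CPM, 3.36-fold more (1.57 to 6.37), on 59 barcodes with 45 within 20% of the limit. Interferon-high stromal barcodes numbered 43 of 3333 (control) and 304 of 1055 (labelled knockout), with 68 and 141 barcodes within 20% of the limit. Median stromal depth was 8943 and 3642 UMIs, so fewer interferon UMIs carry a barcode of the library labelled knockout past the limit. The numbers past it are therefore not matched for depth. On the interferon-high side stromal Zbp1 read 6.64 CPM (0.805 to 24.0) and 8.10 CPM (3.70 to 15.4), which overlap. On the other side it read 0.589 CPM (0.349 to 0.932) and 2.80 CPM (1.21 to 5.51). The stromal contrast between the sides rested on few counts, 11.3 (1.27 to 47.1) with 2 UMIs on the high side of the control, and 2.90 (0.992 to 8.63) in the library labelled knockout, an interval that includes 1. Gland barcodes held 2 and 1 UMIs, 1.49 and 1.97 CPM.

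Partners of the 9 genes were described from 6 lists. Of 13 inflammasome sensors and their adaptor, 7 reached the minimum in epithelium and 1 was past 2-fold higher, Naip1, a sensor of bacterial proteins, at 2.20 and 14.5 CPM (6.58-fold). Naip1 has near-identical copies, so its count is uncertain. In stroma 3 were tested and 1 was lower, the adaptor Pycard, at 16.1 and 8.05 CPM (2.0-fold lower). The median log2 ratio of this list was -0.28 in epithelium and -0.44 in stroma, beside -0.18 and -0.05 over all genes. Of 14 pyroptosis substrates and interleukin partners, 8 were tested in epithelium, of which 4 were higher and 2 lower, with a median log2 ratio of 0.39 beside -0.18 over all genes. Il1rn, the antagonist of interleukin-1, read 0.458 and 3.56 CPM, Il18rap, a subunit of the interleukin-18 receptor, 1.83 and 6.78 CPM, and Il1a 22.4 and 82.5 CPM. Il18bp, the secreted inhibitor of interleukin-18, was lower like its ligand, at 10.9 and 5.17 CPM, and so was the gasdermin Gsdma, at 4.67 and 2.11 CPM. In stroma 4 were tested and 1 was lower, Il18rap, on 20 and 1 UMIs with an interval that includes 1. Their median log2 ratio in stroma was -0.02. Among other barcodes 4 sensors were tested and 0 passed, and of 8 interleukin partners 1 passed, Il1rn, at 6.55 and 18.7 CPM.

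Of 18 necroptosis and death receptor partners, 17 were tested in epithelium, and only Tnfsf10, a death ligand, passed, lower at 14.7 and 5.56 CPM. In stroma 15 were tested and 3 were higher, against 5.61% of all genes. They were the death receptor Fas at 13.0 and 36.2 CPM and the ubiquitin ligase Birc3 at 16.6 and 41.0 CPM. The last was the lipopolysaccharide receptor Tlr4 at 12.7 and 30.0 CPM. Of 11 interferon inducers and guanylate-binding proteins, 10 were in the matrices. In stroma all 10 were tested and 6 were higher, against 5.61% of all genes. Their median log2 ratio was 1.13 beside -0.05 over all genes. The largest folds were Gbp5 (0.486 and 2.01 CPM), Gbp6 (1.07 and 4.03 CPM) and Irf7 (1.98 and 6.80 CPM), and Gbp genes have near-identical copies that make their counts uncertain. In epithelium 9 were tested and 2 were higher, Irf1 at 25.4 and 59.7 CPM and Gbp2 at 2.93 and 6.78 CPM, against 4.94% of all genes. The median log2 ratio there was -0.12 beside -0.18 over all genes. Among other barcodes 0 of 8 interferon genes passed, and of 17 death receptor partners 1 passed, the adaptor Fadd, lower on 20 and 3 UMIs with an interval that includes 1.

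Of 18 apoptosis genes of the mitochondrial pathway, none passed 2-fold in epithelium. In stroma 2 of 17 were lower, a share close to the 11.5% of all genes that were: Bcl2, which protects from apoptosis, at 88.8 and 33.0 CPM (2.69-fold lower, 2.26 to 3.23) and Bcl2l1, of the same family, at 51.6 and 21.1 CPM (2.44-fold lower, 1.96 to 3.08). Of 8 genes of endoplasmic reticulum stress, 0 passed in epithelium and 0 in other barcodes. In stroma 3 were higher, against 5.61% of all genes. They were the stress sensor Ern1 at 91.6 and 238 CPM, Trib3 at 1.91 and 4.53 CPM and Herpud1 at 179 and 366 CPM. Casp12, the caspase of the endoplasmic reticulum, had a stromal ratio of 0.787, with an interval that includes 1.

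Genes of like pattern were ranked by Pearson's r of log2(CPM + 1) over 12 points, the epithelial, stromal, myeloid, lymphoid, endothelial and mural barcodes of both libraries, among 11310 genes. The points share libraries and depth, so r is a description. Nearest to Casp4 were the immediate early gene Ier3 (r = 0.893) and the stress gene Ppp1r15a (r = 0.887). Casp1 lay nearest to Pdpk1 (r = 0.938) and Dnase2a (r = 0.929), Il18 to B4galt6 (r = 0.948) and Ube2q2 (r = 0.933), and Casp12 to Mtfp1 (r = 0.944) and Cc2d2a (r = 0.935). Casp8 lay nearest to Tec (r = 0.972) and Tapbp (r = 0.965), and Zbp1 to Pik3ap1 (r = 0.957) and Laptm5 (r = 0.934), both known from leukocytes. Mlkl was nearest to Cdc42ep3 (r = 0.949) and Acer2 (r = 0.923), Ripk3 to Tmem265 (r = 0.931) and Alms1 (r = 0.879), and Gsdmd to Lemd2 (r = 0.907) and Fam111a (r = 0.900). None of the 9 was among the 2 genes nearest to another of them.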

How the data were processed

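Single cells of mouse uterus, 1 library per genotype, were analysed. The deposited matrices hold whole-number UMI counts per gene and barcode, which the authors' Cell Ranger 7.0.1 produced, per the file headers; mm39 and Seurat (no version) are named per the submitters' processing notes. Uteri had been dissociated with trypsin and depleted of dead and blood cells, per the labels' protocols, so RNA levels of death genes describe only the cells that passed these steps. No source used here states whether counting used strand.

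Barcodes were kept from 500 detected genes and up to a mitochondrial share of 15%, which removed 65 control barcodes for genes and 126 for mitochondrial share, and 115 and 114 in the other library. Counts were summed per class and library and divided by the class total (CPM). Ratios have exact conditional intervals, levels Poisson intervals and shares Clopper-Pearson intervals, at 95%, covering counting error only; 0 counts allow up to 3. Thinning to 2000 UMIs was drawn without replacement (seed 7). With 1 library per group no test was made. No doublet caller was run: barcodes passing both marker sums were set aside, and an alternative left out the top 5% of UMIs. The median log2 ratio of genes with 100 or more UMIs was -0.14 in epithelium, -0.02 in stroma and 0.03 in other barcodes, and values were not recentred. Myeloid, lymphoid, endothelial and mural barcodes were gated by marker sums of 10 per 10000 UMIs. All 9 genes are named, and from each other list at most 3 genes per direction and class with the largest folds past 2-fold, except for 1 result that is not reported here; the 2 genes nearest in pattern are named for each member with 200 or more UMIs. Members and lists were chosen with earlier results of these data known. Promoters came from RefSeq (GRCm38.p6), another build than the files', so they carry no coordinates from the files. The scripts used Python 3.11.15, numpy 2.4.6, pandas 2.3.3, scipy 1.17.1 and matplotlib 3.10.9, and the ratio and its interval were checked on simulated counts.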

Additional observations from a re-analysis of the deposited data

Results flagged for a closer look

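For 2 of the 9 genes the counting interval of the ratio between the libraries lay wholly above 1 in one class and wholly below 1 in another. The ratios of other genes also crossed 1 between classes, but with an interval that includes 1 on at least one side. Casp12 stood at 4.76 in other barcodes and at 0.516 in epithelium, so the ratio in other barcodes was 9.24 times that in epithelium, on 6 and 12 UMIs in other barcodes. Ripk3 stood at 2.53 in epithelium and at 0.255 in other barcodes, a quotient of 9.91, on 28 and 3 UMIs in other barcodes. With 1 library per genotype neither difference was tested.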

How the results depend on the processing

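The class ratios of the 9 genes and the counts past 2-fold were recomputed under 12 alternatives and 2 more chosen after seeing the data (epithelium without gland barcodes, other barcodes with a gated identity only). Among the 12, no minimum and a minimum of 100 UMIs change which genes are tested and leave every ratio as it was. Assigning mixed barcodes and leaving out leukocyte RNA leave the ratios of other barcodes as they were. Such ratios could not move, and they are included in the 342 below. No ratio past 2-fold changed sides of 1, while ratios nearer to 1 did under some settings (Gsdmd in epithelium, 0.684 when thinned; Casp1 and Mlkl in stroma; Casp1, Gsdmd, Casp8 and Mlkl in other barcodes); of 342 recomputed ratios 329 moved by less than counting error and 13 by more. The ratio of Casp4 ranged from 8.01 to 9.77 in stroma, 1.77 to 2.17 in epithelium and 1.18 to 4.78 in other barcodes; Il18 in epithelium was lower by 6.99 to 8.30-fold; Ripk3 in epithelium ranged from 2.39 to 4.04, the highest without the top 5% of UMIs; Zbp1 in stroma ranged from 5.14 to 19.2, and Casp12 in other barcodes from 1.38 to 13.1.

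The number of genes past 2-fold moved as follows; Casp1, Casp4 and Casp12 in epithelium lie so near the limit that small shifts carry them over. Higher in epithelium, 1 gene became 2 with marker sums of 20, after division by the median ratio and without leukocyte RNA, as Casp4 passed, and 3 by the mean over barcodes and without the top 5% of UMIs, as Casp4 and Mlkl passed. Lower in epithelium, 1 became 2 with marker sums of 5 (Casp1) and 3 without gland barcodes (Casp1 and Casp12). Higher in stroma, 2 became 1 when thinned or with a minimum of 100 UMIs, where Zbp1 was no longer tested. Lower in stroma, 0 became 1 (Il18) with marker sums of 5 or 20, with 1000 genes and 10% mitochondrial UMIs, and when thinned. Higher in other barcodes, 1 became 2 with all deposited barcodes or no minimum (Casp12) and with marker sums of 20 (Zbp1), and 0 with marker sums of 5, by the mean over barcodes and with gated barcodes only. Lower in other barcodes, 2 became 1 with all deposited barcodes, 1000 genes, marker sums of 5 or 20, without the top 5% of UMIs and with gated barcodes only, and 0 when thinned or with a minimum of 100 UMIs. Apart from the changes in who was tested, the cause was not tested. Division by the median ratio moved the share of higher genes among all those past 2-fold in epithelium from 24.1% to 31.9%.

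No paired analysis was possible because each genotype had 1 library. Depth limits the sparse genes most: stromal Casp1 and Mlkl, epithelial Gsdmd and every gene in the gated classes rest on few UMIs, and the library labelled knockout was the shallower in epithelial, stromal and other barcodes. Shares, bins, gland and interferon contrasts, lists and like patterns were not recomputed under these settings.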

Other observations

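The barcodes that passed both marker sums, 47 in the control and 31 in the library labelled knockout, belong to no class above. In them Casp4 read 81.1 CPM (58.7 to 109) and 128 CPM (86.7 to 181), and Casp8 read 35.8 CPM (21.6 to 55.9) and 37.0 CPM (16.9 to 70.3). Casp1 read 20.7 CPM (10.4 to 37.1) and 41.2 CPM (19.7 to 75.7), and Il18 13.2 CPM (5.31 to 27.2) and 8.23 CPM (0.997 to 29.7), with overlapping intervals in each case.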
